A study of Petunia x hybrida with 6 samples.

Results

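In the corolla of Petunia x hybrida, 76 genes were near silent at 7AM and on at 7PM. They were chosen by measured values: among 17515 gene IDs with summed counts of 60 or more over 6 libraries, their mean was below 2 CPM (counts per 1000000 counts of the TMM-scaled library) at 7AM and at least 16 CPM at 7PM. The table holds 35812 IDs in all, so the 76 are 0.434% of the rows kept. All samples were petal tissue of the cultivar Mitchell, grown in a greenhouse under 14 h of light and 10 h of dark. The 7AM and 7PM groups, with 3 libraries each, differ in the labels only by the time of sampling. With lights on at 6 AM and off at 8 PM, 7AM falls early and 7PM late in the light period.

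Petals of this white-flowered cultivar release benzenoid and phenylpropanoid volatiles mainly at night. In petunia, MYB factors such as ODORANT1 and EOBII are known to act on genes of the shikimate and phenylalanine routes that feed this scent, and the circadian clock is known to time their activity. Many clock-timed plant genes have a trough and a peak at different times of the day. The table gives its IDs no gene names, functions or coordinates, so which of the 76 belong to these routes is not given here. The corolla label could not be checked against petal markers for the same reason. Genes are described below by ID, level, spread and place on a scaffold, the assembled stretch of the Petunia axillaris reference that each ID names.

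Library totals ran from 16497054 to 18040038 counts. TMM factors (trimmed mean of M-values), which scale libraries so that most genes agree, averaged 1.14 ± 0.01 at 7AM and 0.87 ± 0.02 at 7PM (SD, n = 3). No replicates were identical, and their counts differed by more than sampling noise (chi-square per degree of freedom 6.9 to 30.7). CPM is not corrected for transcript length, and lengths are not given here. The order of the 76 genes is therefore an order of read counts, not of transcript numbers. In petal RNA, fewer cells using a gene and less of its RNA per cell cannot be told apart.

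Together the 76 genes went from 0.00976 ± 0.00194% of all counts at 7AM to 0.275 ± 0.0251% at 7PM (SD, n = 3). They held 1701, 1321 and 1924 counts in 7AM replicates 1 to 3 and 45141, 52309 and 47661 counts in 7PM replicates 1 to 3. The median gene stood at 1.1 CPM at 7AM and 32.8 CPM at 7PM, as means of 3 libraries. Mean levels at 7PM ran from 16.5 to 191 CPM, with 37 genes under 32 CPM, 27 from 32 to 64 CPM and 12 at 64 CPM or more. At 7AM, 10 genes had a mean under 0.5 CPM, 19 lay from 0.5 to 1 CPM and 47 at 1 CPM or more. Near silent thus meant low counts rather than none for most of them, with a median of 21 counts per gene and library at 7AM against 481.5 at 7PM.

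**Figure D1:**
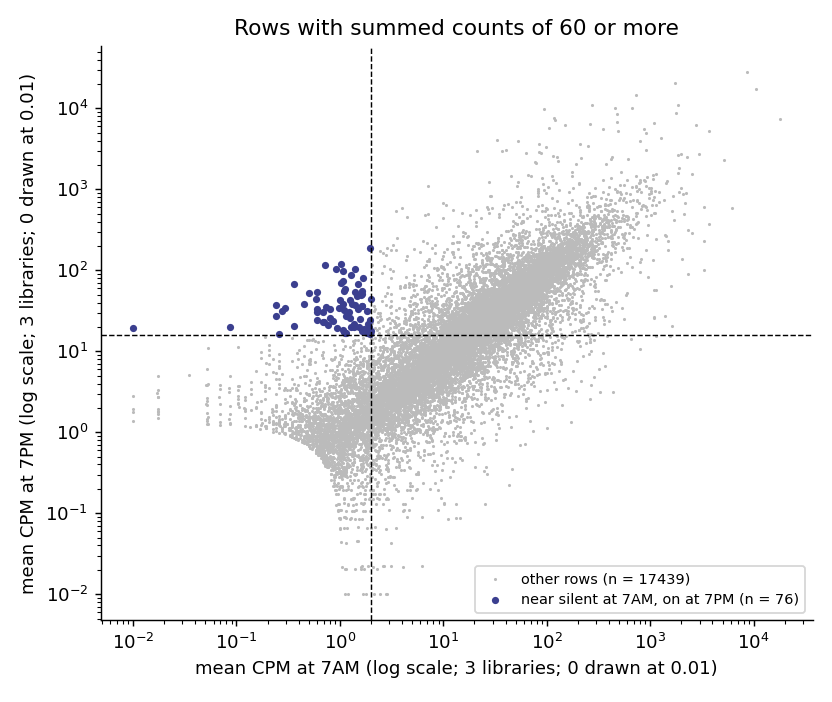
Mean CPM at 7PM (vertical) against mean CPM at 7AM (horizontal), both on log scales, for the 17515 rows with summed counts of 60 or more; each point is a gene, dashed lines mark 2 CPM at 7AM and 16 CPM at 7PM, and a mean of 0 is drawn at 0.01. The 76 genes chosen (dark) fill the upper left corner, many of them close to the 7AM limit.

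Few genes that were quiet in the morning came this high by evening. Of 2508 rows with a mean under 2 CPM at 7AM, 1755 were also under 2 CPM at 7PM, 431 lay from 2 to 4 CPM, 176 from 4 to 8 CPM and 70 from 8 to 16 CPM. The 76 make up 3.03% of the 2508. They are 0.888% of the 8562 rows with at least 16 CPM at 7PM. Under the same limits with the times exchanged, 52 genes were on at 7AM and near silent at 7PM, or 0.586% of the 8881 rows with at least 16 CPM at 7AM. Both counts are with TMM. With library totals 60 genes met the rule in place of 76, and the opposite pattern is given with TMM only. The edgeR quasi-likelihood test called 27.5% of all rows higher and 32.3% lower at 7PM (Benjamini-Hochberg adjusted p under 0.05). All 76 were among those called higher, but the rule used this contrast, so these calls are no test of them. Of all calls, 46% were higher with TMM and 23.2% with library totals, which moves the median log2 fold change of all rows by -0.389.

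The limits cut through a continuous range of genes. Just inside the morning limit were Peaxi162Scf00104g00166 (1.999 CPM) and Peaxi162Scf00493g00434 (1.997 CPM). Just outside it, Peaxi162Scf00966g00021 had a 7AM mean of 2 CPM with 40, 26 and 50 counts, and its 7PM mean was 170.6 ± 102.1 CPM (SD, n = 3). Peaxi162Scf00004g02825, at 2.001 CPM, was the other nearest gene outside. At the evening limit, Peaxi162Scf01274g00013 (16.45 CPM) and Peaxi162Scf00382g00034 (16.55 CPM) were inside, and Peaxi162Scf00009g00082 (15.67 CPM) and Peaxi162Scf00795g00028 (14.87 CPM) were outside. The last of these had only 3, 4 and 4 counts at 7AM and 211, 276 and 197 at 7PM, so it was quieter in the morning than most of the 76.

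The gene with the most evening reads was Peaxi162Scf01108g00327. It had 1.72, 1.67 and 2.47 CPM in 7AM replicates 1 to 3 and 135.9, 276 and 160.9 CPM in 7PM replicates 1 to 3. Its mean went from 1.95 ± 0.45 to 190.9 ± 74.8 CPM (SD, n = 3), a ratio of 97.9. The evening level leaned on replicate 2, which was well above the other two, and it was above every morning value in all 3 libraries.

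Peaxi162Scf00825g00233 came next and was steadier. Its levels were 1.06, 0.78 and 1.26 CPM at 7AM and 125.8, 119.2 and 114.9 CPM at 7PM, so the evening mean was 120 ± 5.51 CPM (SD, n = 3), 116 times the morning mean. Peaxi162Scf00439g00037 had 15, 7 and 20 counts at 7AM and 1802, 1990 and 1512 at 7PM. This gave 115.1 ± 17.6 CPM in the evening (SD, n = 3) and a ratio of 158.8. The 3 evening libraries, at 112.1, 133.9 and 99.2 CPM, were all far above the morning ones.

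Peaxi162Scf00314g10019 and Peaxi162Scf00655g00114 had almost the same evening mean and very different evenness. Peaxi162Scf00314g10019 had 60.4, 159.4 and 95.4 CPM in 7PM replicates 1 to 3, a mean of 105.1 ± 50.2 CPM (SD, n = 3). Peaxi162Scf00655g00114 had 100.3, 109.6 and 103.6 CPM, a mean of 104.5 ± 4.71 CPM (SD, n = 3). In the morning the order of evenness turned. Peaxi162Scf00314g10019 had 16, 19 and 18 counts there, while Peaxi162Scf00655g00114 had 26, 14 and 41. Counts this low limit the comparison. At 7AM, counting error alone would give a median SD of 21.5% of the mean over those of the 76 with morning counts.

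The other 5 of the 10 genes with the most evening reads lay between 70.4 and 99.2 CPM at 7PM. Peaxi162Scf00334g00325 had 87.9, 91.9 and 117.8 CPM at 7PM and a morning mean of 1.07 ± 0.76 CPM (SD, n = 3). Peaxi162Scf00424g00814 reached 86.4 ± 7.14 CPM and Peaxi162Scf00761g00018 reached 80.1 ± 14.7 CPM (SD, n = 3). Peaxi162Scf00178g00039 and Peaxi162Scf00546g00115 followed at 73.4 ± 12.5 and 70.4 ± 12.1 CPM (SD, n = 3). Peaxi162Scf00546g00115 was uneven in the morning, with 29 and 24 counts in replicates 1 and 3 and 6 in replicate 2. These 10 genes held 33.1 ± 1.78% of the evening counts of the 76 and 14 ± 1.98% of their morning counts (SD, n = 3).

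**Figure D2:**
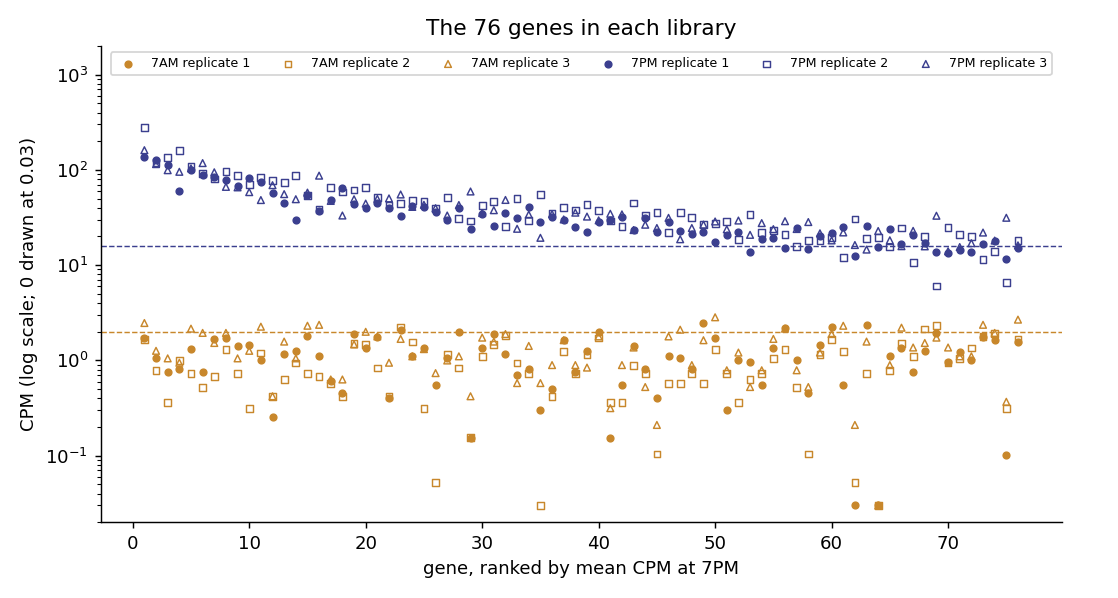
CPM of each of the 76 genes in each of the 6 libraries, on a log scale, with genes ranked by their mean at 7PM; ochre marks are 7AM and blue marks 7PM, each replicate has its own marker, dashed lines mark 2 and 16 CPM, and 0 is drawn at 0.03. Morning and evening points do not overlap for any gene, and 7PM replicate 2 is often the top point.

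The ratio of evening to morning mean could be formed for 75 genes. It ran from 8.35 to 226 with a median of 33.3. The ratio was under 16 in 14 genes, from 16 to 32 in 21, from 32 to 64 in 21 and at least 64 in 19. Since a mean under 2 CPM against one of at least 16 CPM fixes a ratio above 8, these ratios describe the choice.

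Peaxi162Scf00157g01411 was the only gene of the 76 with 0 counts in all 7AM libraries. It had 251, 288 and 348 counts at 7PM, or 19.3 ± 3.61 CPM (SD, n = 3). Against a floor of 3 counts over the 3 morning libraries together (0.0517 CPM, counting error only), it was at least 373-fold higher at 7PM.

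Peaxi162Scf00271g00062 had 0, 1 and 4 counts at 7AM and 199, 453 and 248 at 7PM, a ratio of 225.6 that rests on 5 morning counts. Peaxi162Scf00154g01024 had 5, 8 and 8 morning counts and 915, 1142 and 1053 evening counts, a ratio of 186.2. Its evening mean of 67.6 ± 10 CPM (SD, n = 3) was the highest of the 10 genes under 0.5 CPM at 7AM. Peaxi162Scf00439g00037, with the ratio of 158.8 given before, came next in order and had more morning counts than either. Peaxi162Scf00962g00019 had 3, 3 and 8 counts at 7AM and 383, 433 and 904 at 7PM, a ratio of 154.2. In Peaxi162Scf00248g00212 the morning counts were 6, 0 and 11 and the evening counts 459, 825 and 295, a ratio of 117.4. Besides Peaxi162Scf00157g01411, only this gene and Peaxi162Scf00271g00062 had 0 counts in any morning library.

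Being below 2 CPM or above 16 CPM on average did not mean being so in each library. Of the 76 genes, 58 were under 2 CPM in all 3 morning libraries, 56 were at 16 CPM or more in all 3 evening libraries, and 46 met both. The highest single morning value was 2.84 CPM, in Peaxi162Scf00618g00020. The lowest single evening value was 6.06 CPM, in Peaxi162Scf00104g00166.

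Libraries that had no part in the choice gave a separate look at the pattern. Genes were chosen on 2 libraries of each time and then read in the 2 libraries left out, for each of the 9 ways of leaving out 1 of each (scaling still came from all 6). The choice gave 66 to 85 genes. Of these, 62.4% to 87.9% were both under 2 CPM in the 7AM library left out and at 16 CPM or more in the 7PM library left out. The lowest shares, 62.4% to 67.1%, came with 7AM replicate 3 left out, where 59 to 62 of 82 to 85 genes were under 2 CPM. The shares were 80.9% to 87.9% with 7AM replicate 2 left out and 75% to 81.9% with 7AM replicate 1 left out. Morning values in the library left out reached 6.37 CPM and evening values went down to 4.67 CPM. Both were of Peaxi162Scf00642g00111, which is not one of the 76. It was chosen with 7AM replicate 1 and 7PM replicate 1 left out and was lower in the evening library (4.67 CPM) than in the morning one (6.37 CPM). This was the only reversal among the 9 ways; in the other 8, the lowest ratio of evening to morning in the libraries left out was 1.82 to 6.96.

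Evening levels of the 76 genes varied more between libraries than those of other genes with as many evening reads. The coefficient of variation (CV, the SD over the mean) among the 7PM libraries had a median of 20.4% for the 76 and 8.29% for 7618 other rows of the same range of 7PM means. Counting error alone would give a median of 4.46% for the 76 and 3.97% for the others. Among 127 other rows of that range that were called at least 8-fold higher at 7PM, the median was 13.4%. The difference from the 7618 rows held in each band of level. Medians were 22.3% against 9.33% from 16 to 32 CPM and 20.7% against 7.87% from 32 to 64 CPM. Above 64 CPM they were 16.7% against 7.47%. In the same bands the 8-fold rows had medians of 14.5%, 14.7% and 12.8% (16, 36 and 75 rows). The sets differed in level, since 75 of the 127 lay above 64 CPM but only 12 of the 76. Without 7PM replicate 2 the median of the 76 was 12%, against 6.93% for the other rows and 8.08% for the other 8-fold genes. These are descriptions across genes, with no test.

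**Figure D3:**
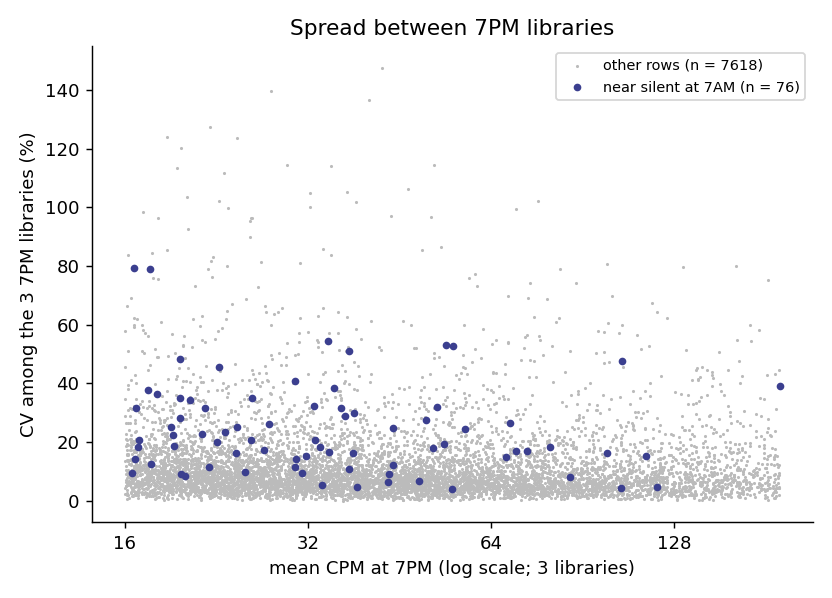
CV among the 3 7PM libraries in percent (vertical) against mean CPM at 7PM (horizontal, log scale) for the 76 genes (dark) and 7618 other rows of the same 7PM range (grey); each point is a gene. The 76 lie higher on the whole, with a median of 20.4% against 8.29%, and reach from 4.01% to 79.3%.

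The steadiest of the 76 held within a few percent. Peaxi162Scf00481g00327 had 53.9, 53.8 and 57.7 CPM at 7PM, a CV of 4.01%, although its morning counts were 36, 14 and 44. The next were Peaxi162Scf00655g00114 (4.5%) and Peaxi162Scf00825g00233 (4.59%), described above. In all, 14 genes had a CV under 10%, 22 over 30% and 6 over 50%.

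At the other end, Peaxi162Scf00382g00034 had 11.6, 6.59 and 31.4 CPM in 7PM replicates 1 to 3, a CV of 79.3%. Peaxi162Scf00104g00166 was uneven in the same way, with 13.8, 6.06 and 33 CPM and a CV of 78.8%. Both were on average above 16 CPM through replicate 3 alone, and without it neither reached the evening limit. Peaxi162Scf00248g00212, next by CV at 54.5%, differed in being highest in replicate 2, with 28.5, 55.5 and 19.4 CPM.

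The unevenness of the evening was described with a factor of 1.5, which was chosen after the values were seen. In 11 of the 76 genes (14.5%), 7PM replicate 2 was at least 1.5 times each of the other libraries. In 5 (6.58%) replicate 3 was, and in 0 replicate 1 was. Among the other rows of at least 16 CPM at 7PM, these shares were 1.84%, 1.18% and 2.3%. Among other genes called at least 8-fold higher they were 3.23%, 4.84% and 0.403%. Replicate 2 was at least 1.5 times below each of the other libraries in 5 of the 76 genes (6.58%), as were replicate 1 in 4 (5.26%) and replicate 3 in 2 (2.63%). Among the other rows of at least 16 CPM these shares were 1.51%, 0.966% and 0.483%. For the other genes called at least 8-fold higher they were 3.23%, 1.21% and 0.806%. Neither of these comparison sets had an upper limit of level. Of their 8486 and 248 rows, 7618 and 127 lay in the range of 7PM means of the 76.

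The genes with high replicate 2 included Peaxi162Scf01108g00327, Peaxi162Scf00314g10019, Peaxi162Scf00271g00062 and Peaxi162Scf00248g00212, all described above. Peaxi162Scf00312g00310 belonged with them, at 29.9, 87.1 and 49.2 CPM in 7PM replicates 1 to 3. Peaxi162Scf00072g01013 did too, at 13.6, 34.2 and 20.8 CPM. In each of these except Peaxi162Scf00248g00212, replicate 1 was the lowest library. Replicate 3 was the lowest in that gene, as in Peaxi162Scf00906g00019 and Peaxi162Scf01164g00018, which were also among the 11. The genes with high replicate 3 were Peaxi162Scf00382g00034, Peaxi162Scf00104g00166, Peaxi162Scf00962g00019, Peaxi162Scf00110g00028 and Peaxi162Scf00008g00386. Peaxi162Scf00110g00028 had 36.7, 38.1 and 87 CPM, with replicates 1 and 2 close together and replicate 3 apart.

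The libraries also had an order within each time. In the morning, replicate 2 was the lowest library for 47 of 75 genes (62.7%; Peaxi162Scf00157g01411 had no order) and replicate 3 the highest for 44 (58.7%). Over all rows with an order these shares were 31.6% and 36.2%. Among 248 other genes called at least 8-fold higher with at least 16 CPM at 7PM, they were 75.4% and 64.5%. The 76 genes shared this order with other strongly rising genes. Their summed morning level was 86, 68.7 and 101 CPM in replicates 1 to 3, so replicate 3 stood 1.47 times above replicate 2. That ratio was 0.98 over all rows. It was 1.1 over the other rows under 2 CPM at 7AM, where replicate 2 was lowest in 37.1%.

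In the evening, replicate 1 was the lowest library for 41 of the 76 genes (53.9%) and replicate 2 the highest for 40 (52.6%), against 34.4% and 34.5% of all rows. For the other 8-fold genes the shares were 48.4% and 49.2%. Summed evening levels were 2808, 3520 and 3126 CPM in replicates 1 to 3. Leaving out Peaxi162Scf01108g00327, they were 2672, 3244 and 2965 CPM, in the same order. The cause of these orders was not tested.

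**Figure D4:**
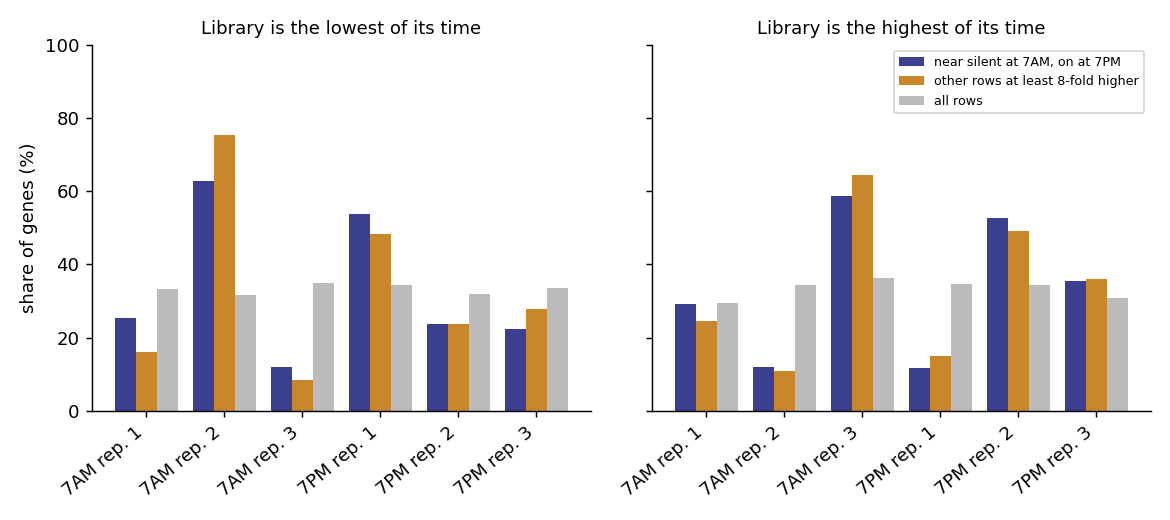
Share of genes, in percent, for which each library is the lowest (left) or the highest (right) of the 3 libraries of its time; blue bars are the 76 genes (75 at 7AM), ochre bars the 248 other genes called at least 8-fold higher with at least 16 CPM at 7PM, and grey bars all rows. 7AM replicate 2 is lowest for 62.7% of the 76 genes and 7PM replicate 2 highest for 52.6%, while the grey bars stay near equal shares.

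The IDs spread the 76 genes over 71 scaffolds of the reference, out of 1306 scaffolds with at least 1 row kept. No scaffold held 3 of them and 5 held 2. The 52 genes of the opposite pattern lay on 48 scaffolds, of which 4 held 2, and 4 scaffolds carried genes of both patterns. Scaffolds with a gene of the 76 had from 2 to 193 rows kept, with a median of 19. Over all 1306 scaffolds the median was 8 rows kept. Counted once per row kept rather than once per scaffold, it was 25.

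Genes that shared a scaffold were not next to each other. With IDs ordered by their number, which is assumed to follow the order on the scaffold, the pairs stood 9 to 65 places apart. No gene of the 76 had another within 3 places. The 76 are only 0.434% of the rows kept, so few adjacent genes would be met in any set of this size. Whether their places differ from those of other such sets was not tested. The pairs were named after their positions were seen. On scaffold 825 the strong and even Peaxi162Scf00825g00233 shared its scaffold with Peaxi162Scf00825g00024, which had 28.1, 22 and 31.4 CPM at 7PM. They stood 9 places apart, and of the 6 rows kept between them 0 were called higher and 5 lower at 7PM. Over all rows, 27.5% were called higher and 32.3% lower. Scaffold 408 held Peaxi162Scf00408g00521 (53.5 ± 10.3 CPM) and Peaxi162Scf00408g00840 (23.4 ± 5.47 CPM at 7PM, SD, n = 3), 14 places apart. Of the 9 rows kept between these, 1 was called higher and 4 lower.

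On scaffold 100, Peaxi162Scf00100g00017 (43.3 ± 2.82 CPM) and Peaxi162Scf00100g00318 (33.5 ± 6.1 CPM) were 25 places apart, with 3 of 10 rows kept between them called higher and 0 lower. Scaffold 618 held Peaxi162Scf00618g00020 and Peaxi162Scf00618g00219, 17 places apart, at 24.4 ± 6.13 and 19.1 ± 4.79 CPM. Scaffold 3, with 193 rows kept, held Peaxi162Scf00003g01630 and Peaxi162Scf00003g02840, 65 places apart, at 21.7 ± 6.88 and 17.7 ± 2.23 CPM (all at 7PM, SD, n = 3). Between the pair on scaffold 618, 5 of 10 rows kept were called higher and 3 lower. On scaffold 3, 12 of 32 were called higher and 7 lower. The absence of adjacent genes hung on the limits: without 7AM replicate 3 Peaxi162Scf00797g00012 and Peaxi162Scf00797g00013 both met them, and without 7PM replicate 1 Peaxi162Scf00032g01117 and Peaxi162Scf00032g01118 did. Without 7AM replicate 2, 3 scaffolds rather than 5 held 2 genes.

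The genes next to the 76 had values that the rule did not use. There were 144 of them, of which 84 were tested. At an edgeR adjusted p under 0.05, 29 of the 84 (34.5%) were higher at 7PM and 27 (32.1%) lower, beside 27.5% and 32.3% of all rows. With library totals 20 (23.8%) were higher and 36 (42.9%) lower, beside 16.1% and 53.4% of all rows. Their median log2 fold change was 0.04 (middle range, from the lower to the upper quartile, -0.56 to 0.81), against -0.05 (-0.61 to 0.48) for all rows.

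Large changes next to the 76 were counted with a size chosen after the values were seen. Changes of at least 4-fold upwards were called in 11 of the 84 neighbours (13.1%), beside 6.12% of all rows, and downwards in 5 (5.95%), beside 6.21%. At 2 places away, 14 of 79 tested genes (17.7%) were called at least 2-fold higher, and 3 places away 12 of 71 (16.9%), beside 17 of 84 (20.2%) next to the 76 and 13.1% of all rows.

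**Figure D5:**
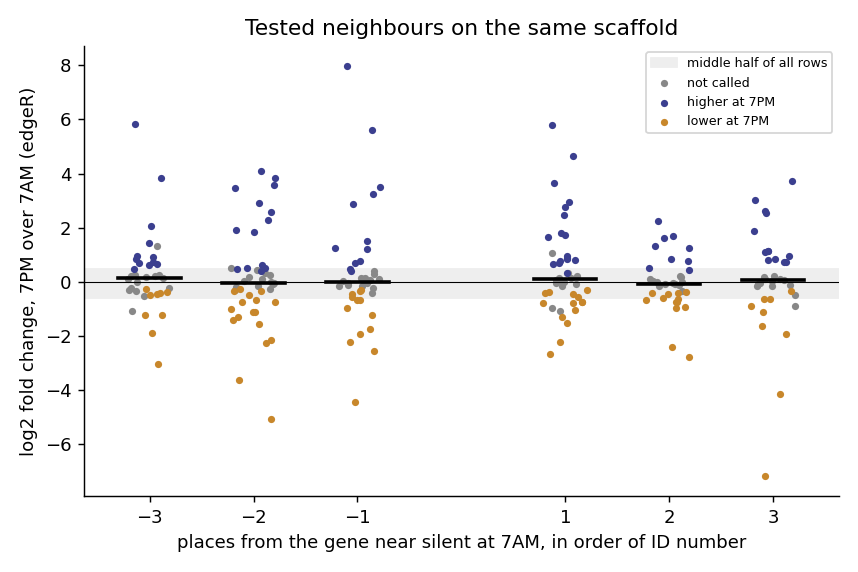
Log2 fold change, 7PM over 7AM, of tested genes 1 to 3 places before (negative) or after the 76 genes on the same scaffold, in order of ID number; each point is a gene, coloured by its edgeR call, black bars are medians and the grey band runs from the lower to the upper quartile of all rows (-0.61 to 0.48). Medians lie near 0 at every place, with single genes far above and below.

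Some of these neighbours followed the gene beside them closely. Peaxi162Scf00382g00033, next to Peaxi162Scf00382g00034, had 7, 2 and 3 counts at 7AM and 126, 101 and 254 at 7PM, a log2 fold change of 5.61 (edgeR adjusted p = 0.000135). Its evening libraries had the order of its neighbour, with replicate 3 highest and replicate 2 lowest. Peaxi162Scf00104g00168, next to Peaxi162Scf00104g00166, had 5.01, 5.62 and 3.41 CPM at 7AM and 19, 6.66 and 51.5 CPM at 7PM (log2 fold change 2.46, edgeR adjusted p = 0.0186). Here too replicate 3 was highest and replicate 2 lowest, as in the gene beside it. On the other side of these genes, Peaxi162Scf00382g00043 and Peaxi162Scf00104g00156 were not called (log2 fold change 0.159 and 0.005, edgeR adjusted p = 0.554 and 0.984). The 2 most uneven genes of the 76 each stood beside a gene uneven in the same libraries. Without coordinates and strand, 2 genes and a single transcript counted under 2 IDs cannot be told apart.

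Peaxi162Scf00032g01118, next to Peaxi162Scf00032g01117, missed the evening limit at 14.1 ± 3.92 CPM (SD, n = 3) after 0.55 ± 0.14 CPM in the morning. Peaxi162Scf00797g00013, next to Peaxi162Scf00797g00012, missed the morning limit at 2.34 ± 0.61 CPM and reached 29.8 ± 0.95 CPM in the evening (SD, n = 3). Peaxi162Scf00141g00330 went from 5, 2 and 3 counts to 96, 250 and 104, and was highest in replicate 2. Its CV at 7PM was 61.1%, while that of Peaxi162Scf00141g00327 beside it was 9.24%. Peaxi162Scf00825g00022 had 0 counts in all morning libraries and 20, 24 and 38 in the evening, so it was at least 34.5-fold higher against a floor of 3 counts over the 3 morning libraries.

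Other neighbours went the opposite way. Peaxi162Scf00166g01118 fell from 108, 80 and 89 counts at 7AM to 3, 3 and 4 at 7PM (log2 fold change -4.42, edgeR adjusted p = 1.31e-05). The gene beside it, Peaxi162Scf00166g01119, went from 8, 8 and 18 counts to 636, 637 and 765. Peaxi162Scf00493g00434 stood between a gene that fell and a gene that rose. On one side Peaxi162Scf00493g00432 went from 113 ± 6.58 to 19.5 ± 2.79 CPM, and on the other Peaxi162Scf00493g00436 went from 20.7 ± 3.35 to 161 ± 31.5 CPM (SD, n = 3; edgeR adjusted p = 4.94e-06 and 1.48e-05).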

How the data were processed

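The deposited table gives unnormalized read counts by gene ID, with 1 column per library. The reference was Petunia axillaris, per the series' design text, and cutadapt, TopHat2 and HTSeq are listed per the submitters' processing notes. Not given in the sources used here were tool versions, the annotation, and the strand and multi-mapping settings. Because the plant is a hybrid, reads of alleles unlike the reference may be lost. Labels number the replicates without naming plants, so the p-values reflect only the spread of these samples, possibly technical.

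Rows with summed counts of at least 60 were kept, libraries scaled with TMM and CPM taken per 1000000. edgeR 4.0.16 (R 4.3.3; glmQLFit, glmQLFTest, Benjamini-Hochberg, threshold 0.05) compared 7PM with 7AM over all rows kept, and was tested on simulated data. DESeq2 1.42.0, other scalings, filters and limits, the replicate number as a block and leaving out each library were the alternatives. Genes and comparisons were chosen with earlier results of these data known. Named genes were those with the most evening reads, the widest ratios, no morning counts, the extreme CVs and those nearest the limits; others were named after their values were seen. Floors cover counting error only, and ± values are SDs among the 3 libraries of a time.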

Additional observations from a re-analysis of the deposited data

How the results depend on the processing

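How many genes met the rule depended mainly on its limits. There were 29 with a 7AM limit of 1 CPM and 157 with 4 CPM, 146 with a 7PM limit of 8 CPM and 39 with 32 CPM, and 46 where each library had to meet the limits. Their share of 7PM counts was then 0.0944%, 0.683%, 0.341% and 0.203% under the 4 limits in that order, and scaffolds with at least 2 such genes numbered 1, 22, 19 and 1. Library totals gave 60 genes, all among the 76 and met under every scaling tried (a count added after seeing the data); leaving out 1 library gave 69 to 85. With 1 library left out, the share of counts was 0.253% to 0.323%, scaffolds with 2 genes 3 to 7, genes with an adjacent one 0 to 2, and the median CV 12% to 20.5%. As an SD of log2 CPM the median spread was 0.285. Library totals gave 2825 genes higher and 9345 lower at 7PM, where TMM gave 4813 and 5657. Of non-member neighbours, 49 were higher and 41 lower among 138 when neighbours were sought among rows kept, and 77 and 75 among 234 up to 3 places away. With the replicate number as a block (replicate block), 4503 genes were higher and 5330 lower. Across genes, same-numbered libraries deviated from their group means with correlations of -0.242, 0.103 and 0.0966. The 7AM replicates 1 and 3 went best with another number, and replicate 2 with its own. Correlations this weak cannot tell whether the numbers pair the samples. All 76 were called higher in every fit, beside 27.5% of all rows with TMM and 16.1% with library totals. The rule used this contrast, so these calls are no test of them. Of 90 alternative 7PM levels of 18 named genes, 86 stayed within 1 SD and the other 4 moved with library totals. Levels with a 7PM library left out could not move that far. A mean of 2 of the 3 libraries always lies within 1 SD of the mean of all 3.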
